A study of Mus musculus with 4 samples.

Results

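Adenosine metabolism and receptors are described here through 10 genes, Ada, Adk, Nt5e, Entpd1, Pnp, Dpp4, Adora1, Adora2a, Adora2b and Slc29a1, which were chosen by symbol among the 16218 genes of the deposited table. All 10 were listed, and all 10 were among the 16217 genes kept by a filter on low counts. Ada entered the set because its value was lower after anti-PD-L1, so its difference is given as a description with no test. The samples were 4 thyroids from NOD.H-2h4 animals, which are known to develop autoimmune thyroiditis, profiled by RNA-seq after poly(A) selection. In 2 of them the mouse had been given a monoclonal antibody against PD-L1, which restrains T cells by binding PD-1, and in the other 2 an IgG isotype control, 3 times per week for 2 weeks in each group. Strain, tissue and schedule were shared by both groups, and the labels used here state neither age nor sex. The titles give each library to a mouse and number the libraries 1 and 2 in each group, and the p-values measure only the spread between these samples.

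Adenosine is made outside cells from ATP in steps. The membrane enzyme CD39, encoded by Entpd1, removes phosphates from ATP and ADP to give AMP, and CD73, encoded by Nt5e, turns AMP into adenosine. Adenosine then binds receptors on nearby cells, enters cells through the equilibrative transporter encoded by Slc29a1, is phosphorylated back to AMP by adenosine kinase (Adk), or is deaminated to inosine by adenosine deaminase (Ada), after which purine nucleoside phosphorylase (Pnp) splits inosine to hypoxanthine. Signalling through Adora2a restrains T cells, and loss of adenosine deaminase in humans causes severe combined immunodeficiency. In mice, Ada is known for high levels in the keratinized squamous epithelium of the upper alimentary tract and in the thymus.

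Total counts ranged from 75591923 to 79663374.5 per library, and 1 count corresponded to 0.0123 to 0.0136 CPM, the library-scaled count after TMM normalization. Tg, the gene of thyroglobulin and the most abundant of the thyroid follicular markers, took 4.34% and 16.9% of counts in anti-PD-L1 replicates 1 and 2, and 15.3% and 14.6% in the IgG thyroids. Xist was at 1.40 CPM in anti-PD-L1 replicate 1 and at 67.7 to 72.7 CPM elsewhere, and Ddx3y, on the Y chromosome, was at 62.6 CPM there and at 0.350 to 0.790 CPM elsewhere, so this library stands apart in sex-linked genes and in thyroglobulin. Cd274, the gene of PD-L1, had 34.8 and 26.6 CPM in the anti-PD-L1 thyroids and 23.1 and 10.0 CPM in the IgG thyroids. Because the antibody targets a protein, the Cd274 transcript says nothing of whether the labels are right.

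Within the set, the transcripts of Entpd1, Adora2a and Pnp were higher in each anti-PD-L1 thyroid than in either IgG thyroid, those of Ada and Slc29a1 were lower in each, and those of Adk, Nt5e, Dpp4, Adora1 and Adora2b overlapped. Leaving out Ada, which was chosen for its lower value, 3 of the other 9 genes lay above, 1 below and 5 overlapped. In the whole table the groups did not overlap in 29.6% of genes, with anti-PD-L1 above in 16.5% and below in 13.1%. The quasi-likelihood test of edgeR was used with p-values adjusted over all genes by Benjamini-Hochberg. At 0.05 it called 0 of the 9 genes other than Ada higher and 0 lower, and 0% of all genes in either direction. Of the 9 genes other than Ada, edgeR had 3 at an unadjusted p under 0.05, against 6.06% of all genes in either direction, and limma voom called 0 with 3 at that unadjusted level, against 6.43% of all genes. DESeq2, run as an alternative, called Entpd1 and Adora2a of these 9 higher and 0 lower, where it called 2.93% of all genes higher and 0.327% lower. Ada was chosen on this contrast, so its calls are left out and nothing is read from a count that includes it. The median log2 fold change of the 10 genes was 0.070, that of the 9 genes other than Ada was 0.098, and that of all genes tested was 0.00021.

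**Figure D1:**
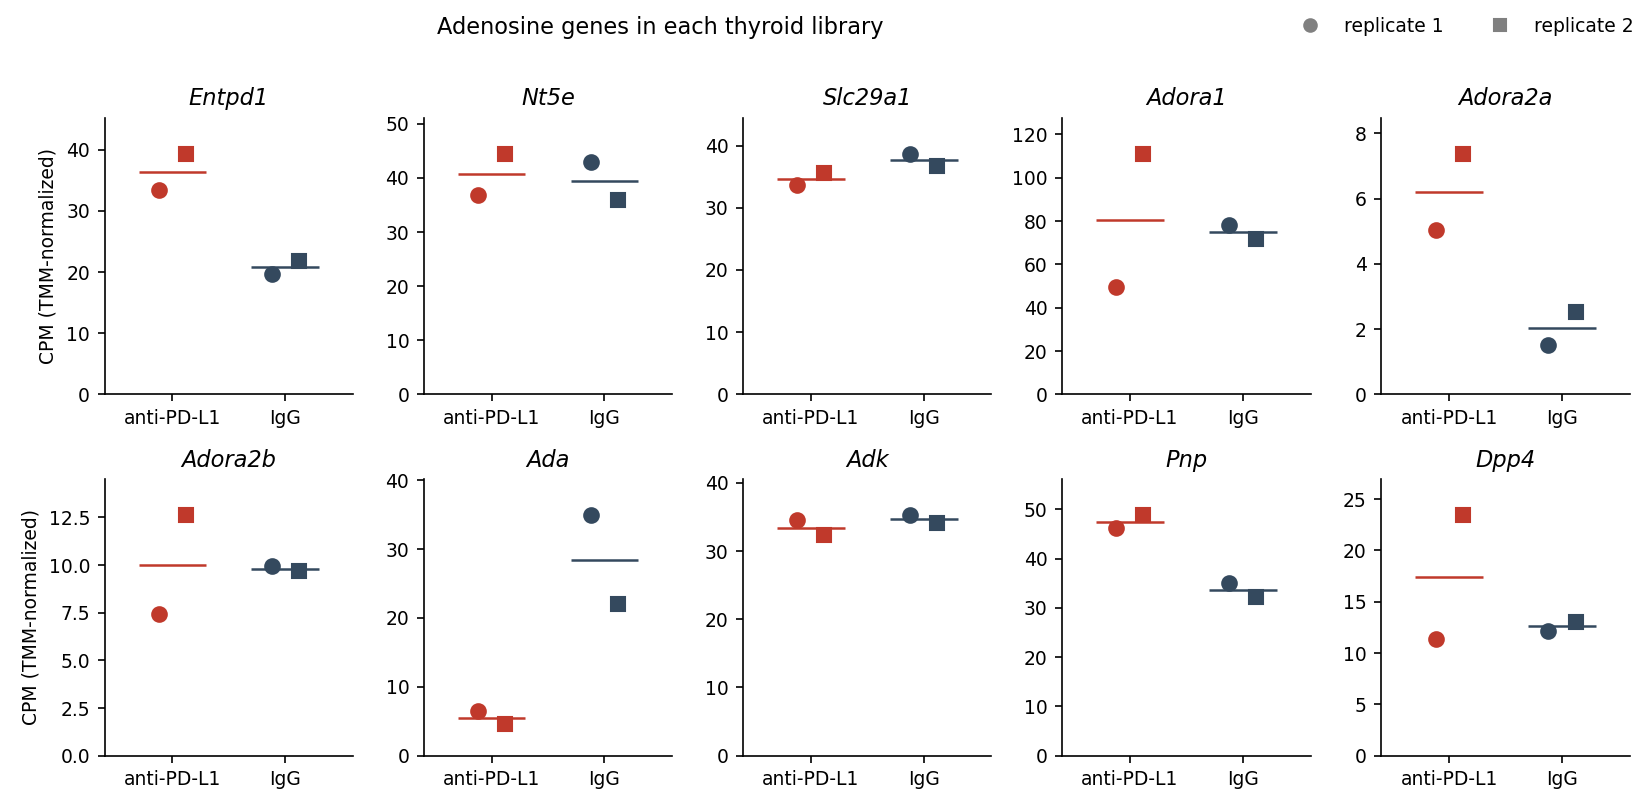
TMM-normalized CPM of each of the 10 genes (y axis, starting at 0, a scale of its own per panel) in the anti-PD-L1 (left) and IgG (right) thyroids, with circles for replicate 1, squares for replicate 2 and a line at each group's mean of 2 libraries. Ada lies at 4.64 to 6.42 CPM after anti-PD-L1 and 22.1 to 34.9 CPM after IgG, while the Entpd1, Adora2a and Pnp groups are separated in the other direction.

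Adenosine deaminase was the gene that differed most within the set. Ada had 472.5 and 375.5 counts, or 6.42 and 4.64 CPM, in the anti-PD-L1 thyroids, against 2793 and 1680 counts, or 34.9 and 22.1 CPM, in the IgG thyroids. The mean was 5.53 ± 1.26 CPM in anti-PD-L1 thyroids and 28.5 ± 9.10 CPM in IgG thyroids (SD, n = 2 each). The groups did not overlap, and the highest of the 4 libraries was 7.53 times the lowest. The log2 fold change was −2.36 ± 0.33 (SE), a 5.15-fold lower level in anti-PD-L1 thyroids, and it lay between −2.66 and −2.02 when any 1 library was dropped. The gene lies on chromosome 2 from 163726584 to 163750239 of GRCm38 on the minus strand, and no exon of another annotated gene overlaps its exons.

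Per kilobase of exon, which allows levels to be compared between genes, Ada ranked 8 and 10 among the 10 genes in the anti-PD-L1 thyroids and 1 and 2 in the IgG thyroids. It had 3.21 and 2.32 CPM per kilobase after anti-PD-L1 and 17.4 and 11 CPM per kilobase after IgG. Adk, the enzyme that removes adenosine by phosphorylation, had 4.05 and 3.79 CPM per kilobase in the anti-PD-L1 thyroids and 4.14 and 4.01 CPM per kilobase in the IgG thyroids. The ratio of Ada to Adk per length was therefore 0.793 and 0.612 in anti-PD-L1 thyroids, against 4.22 and 2.75 in IgG thyroids. This ratio is taken within a library, so the scaling between libraries does not enter it, and it carries the choice of Ada.

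The 5 genes with the profile most like Ada, by Euclidean distance between log2 CPM centred on each gene's mean over the 4 libraries and among 15228 other genes with a mean of at least 1 CPM, were Gsdma (distance 0.575), Defb14 (0.744), Otop2 (0.824), Rdh12 (0.894) and Matn1 (0.948). Gsdma had 1.43 and 0.728 CPM in the anti-PD-L1 thyroids and 7.05 and 2.95 CPM in the IgG thyroids. Matn1, a gene of the cartilage matrix, had 3.85 and 1.75 CPM after anti-PD-L1 and 13.3 and 18.3 CPM after IgG. Of 11 cartilage markers, 6 ranked within the first 100 in likeness to Ada, 3 lay between and 2 ranked beyond 10000, with ranks from 5 for Matn1 to 14246 for Cnmd and a median of 72. Of 18 squamous markers, 1 ranked within the first 100, 3 lay between and 14 ranked beyond 10000. Their ranks ran from 66 for Trp63 to 15222 for Cnfn, with a median of 14390. The 3 between were Krt10, Krt1 and Dsc3, at ranks 116, 930 and 1032. Gsdma, Defb14, Otop2 and Rdh12 are on none of the marker lists, so these tallies do not place them. These distances describe 4 libraries that share the group difference by which Ada was chosen.

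Squamous epithelium markers, led by Krt4, had a summed level of 6125 and 129 CPM in the anti-PD-L1 thyroids and 13681 and 3755 CPM in the IgG thyroids, over 18 of 20 genes that were listed. In 6 of the 18 the anti-PD-L1 values lay below the IgG values without overlap, the other 12 overlapped, and no marker was at 0, the smallest count being 4. In anti-PD-L1 replicate 1 and IgG replicate 2, Ada was at 6.42 CPM and 22.1 CPM, while the squamous sum, led by Krt4 and Krt13, was higher in anti-PD-L1 replicate 1. The 6 squamous markers without overlap, Krt1, Trp63, Dsc3, Krtdap, Sbsn and Lgals7, were lower there, which their lack of overlap fixes. Krtdap, for instance, had 14.4 CPM in anti-PD-L1 replicate 1, against 40.8 CPM in IgG replicate 2. In likeness to Ada, Krt1, Trp63 and Dsc3 ranked 930, 66 and 1032, and Krtdap, Sbsn and Lgals7 ranked 14405, 13470 and 14502. Between the anti-PD-L1 libraries the squamous sum differed 47.4-fold and Ada 1.38-fold. Cartilage markers, of which 11 of 12 were listed, had 7 genes below, 1 above and 3 overlapping, with sums of 187 and 290 CPM in the anti-PD-L1 thyroids and 307 and 352 CPM in the IgG thyroids. Sox9 is the largest of them and overlapped between the groups, at 61.7 and 113 CPM after anti-PD-L1 and 97.2 and 106 CPM after IgG, while Acan, the gene of aggrecan, had 7.35 and 10.6 CPM after anti-PD-L1 and 56.3 and 75.1 CPM after IgG. For thymus, 4 of 8 markers were listed, namely Foxn1, the largest, Dntt, Ccr9 and Themis, with 3 above and 1 overlapping. The thymus sums therefore do not include Rag1, Rag2, Ptcra or Psmb11. The sums of the 4 were 14.3 and 14 CPM in the anti-PD-L1 thyroids and 8.78 and 7.76 CPM in the IgG thyroids. Without Foxn1 the sums were 10.7 and 10.7 CPM after anti-PD-L1 and 4.43 and 4.74 CPM after IgG. The part of these tissues in the Ada values was not tested, and in bulk tissue fewer cells of a type and less RNA per cell cannot be told apart.

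The bases before the start sites of the 4 windows below are shown because they belong to the genes of the set with the larger differences and no overlap between groups, as far as the RefSeq promoter table (GRCm38.p6) has them. That table held 9 of the 10 genes, Adora2a not among them. Each window is the 250 bases before a start, 5′ to 3′ on the gene's strand, and capitals mark CCAAT or its reverse ATTGG. Ada has a single listed start on the minus strand (chr2:163750240-163750489), Entpd1 a pair of starts on the plus strand (chr19:40612116-40612365 and chr19:40659520-40659769), and Pnp a single start on the plus strand (chr14:50944053-50944302).
Ada: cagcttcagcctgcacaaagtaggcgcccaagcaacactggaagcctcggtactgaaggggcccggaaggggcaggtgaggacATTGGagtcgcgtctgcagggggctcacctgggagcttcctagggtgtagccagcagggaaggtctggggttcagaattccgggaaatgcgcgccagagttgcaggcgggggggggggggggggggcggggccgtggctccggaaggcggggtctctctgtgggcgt
Entpd1, start 1: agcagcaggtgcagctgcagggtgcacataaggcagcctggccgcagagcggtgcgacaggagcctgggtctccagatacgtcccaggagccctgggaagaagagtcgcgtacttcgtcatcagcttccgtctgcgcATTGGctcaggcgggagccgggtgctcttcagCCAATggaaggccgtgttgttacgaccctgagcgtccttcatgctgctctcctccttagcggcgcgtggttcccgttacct
Entpd1, start 2: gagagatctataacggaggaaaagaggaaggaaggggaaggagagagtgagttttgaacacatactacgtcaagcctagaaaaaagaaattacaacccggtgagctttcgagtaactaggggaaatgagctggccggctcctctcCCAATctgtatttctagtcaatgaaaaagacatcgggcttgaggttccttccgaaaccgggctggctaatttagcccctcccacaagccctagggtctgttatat
Pnp: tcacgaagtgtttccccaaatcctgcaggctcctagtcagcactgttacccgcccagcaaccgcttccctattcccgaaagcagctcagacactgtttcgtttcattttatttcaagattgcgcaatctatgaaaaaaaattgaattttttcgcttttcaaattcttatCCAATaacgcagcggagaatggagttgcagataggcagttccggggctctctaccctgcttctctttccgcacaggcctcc

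Each of these 4 windows holds CCAAT on at least 1 strand, at 167 bases before the start in Ada, at 113 and 81 in the upstream Entpd1 window, at 105 in the downstream Entpd1 window and at 81 in Pnp. The same letters occur in 33.8% of all 32851 promoter windows of this length, and also in both windows of Adk, whose level did not separate the groups. The Ada window has a GC content of 67.2%, 1 GC box (GGGCGG, either strand, in 32.7% of all windows) and 1 match to TTCNNNGAA, which reads the same on both strands and is the pattern bound by STAT factors, at 90 bases before the start (7.02% of all windows). TATAAA on either strand, present in 12.4% of windows, has no match in the Ada, Entpd1 or Pnp windows and 1 match in that of Dpp4. These matches describe letters in a window and no binding was measured.

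The enzymes that make adenosine outside cells differed in their values. Entpd1 (chromosome 19, 40612366 to 40741602) had 33.4 and 39.3 CPM in the anti-PD-L1 thyroids and 19.7 and 21.9 CPM in the IgG thyroids. The groups did not overlap, and the mean was 36.4 ± 4.23 CPM after anti-PD-L1 and 20.8 ± 1.51 CPM after IgG (SD, n = 2 each). The log2 fold change of 0.81 ± 0.17 (SE, 95% interval 0.36 to 1.26) is a 1.75-fold higher level and did not pass over all genes (edgeR adjusted p = 0.322). DESeq2 called it with all libraries (DESeq2 adjusted p = 0.0253) and without anti-PD-L1 replicate 1 (DESeq2 adjusted p = 0.00622). The DESeq2 call was lost without anti-PD-L1 replicate 2 (DESeq2 adjusted p = 0.127), without IgG replicate 1 (DESeq2 adjusted p = 1) and without IgG replicate 2 (DESeq2 adjusted p = 0.773), while the edgeR log2 fold change stayed between 0.67 and 0.92.

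Nt5e, the gene of CD73 (chromosome 9, 88327197 to 88372092), had 36.9 and 44.5 CPM in the anti-PD-L1 thyroids and 43.0 and 36.0 CPM in the IgG thyroids. The groups overlapped, with IgG replicate 2 the lowest library and anti-PD-L1 replicate 2 the highest. Its log2 fold change was 0.042 ± 0.18 (95% interval −0.45 to 0.53, edgeR adjusted p = 1), and it was below 0 without anti-PD-L1 replicate 2 (−0.11) and without IgG replicate 2 (−0.081). The ratio of Nt5e to Entpd1 per length was 0.716 and 0.733 in anti-PD-L1 thyroids and 1.42 and 1.07 in IgG thyroids. Per kilobase, Entpd1 ranked 4 in each anti-PD-L1 library and 8 in each IgG library. Nt5e ranked 5 and 6 after anti-PD-L1 and 6 in each IgG library. These ranks carry the choice of Ada, which ranked above both genes in the IgG thyroids and below both in the anti-PD-L1 thyroids.

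Entpd1 is known on macrophages, regulatory T cells and endothelium, and markers of these cells were measured beside it. The 10 macrophage markers, C1qa the largest, summed to 839 and 791 CPM in the anti-PD-L1 thyroids and 194 and 251 CPM in the IgG thyroids, with 8 above and 2 overlapping. The 5 regulatory T cell markers, Ikzf2 the largest, summed to 37.4 and 39.1 CPM after anti-PD-L1 and 22.1 and 16.9 CPM after IgG. Of these markers 4 lay above and 1, Ikzf2 itself, overlapped. Without Ikzf2 the sums were 21.6 and 25.5 CPM after anti-PD-L1 and 5.84 and 7.93 CPM after IgG. The 10 endothelial markers, Plvap the largest, summed to 354 and 494 CPM in the anti-PD-L1 thyroids and 460 and 422 CPM in the IgG thyroids, with 0 above, 3 below and 7 overlapping. No marker of these lists was at 0, and the part of these cells in the Entpd1 values was not tested. The genes with the profile most like Entpd1 were Mfng (distance 0.0444), Nfatc2 (0.0912), Xlr (0.0917), Shisa5 (0.101) and Fyn (0.102). For Nt5e, whose range over the libraries was only 1.24-fold, they were BC052040 (0.0110), Arhgef16 (0.0190), Stx18 (0.0241), Smarcb1 (0.0266) and Fam32a (0.0286).

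Slc29a1, which carries adenosine across the plasma membrane in either direction, had 33.6 and 35.6 CPM in the anti-PD-L1 thyroids and 38.7 and 36.7 CPM in the IgG thyroids. The groups did not overlap, but the log2 fold change was small, at −0.12 ± 0.14 (95% interval −0.49 to 0.24, edgeR adjusted p = 1). It lies on chromosome 17 from 45585200 to 45599606 and shares 275 exon bases with the antisense gene Gm17080, so with the strand setting unknown part of its reads cannot be assigned. With the exon length used here Slc29a1 ranked 3 per kilobase among the 10 genes, Ada included, in all 4 libraries.

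Of the 3 receptors, Adora2a alone had groups that did not overlap. Adora2a, which stimulates adenylyl cyclase (chromosome 10, 75316877 to 75334784), had 5.05 and 7.37 CPM in the anti-PD-L1 thyroids and 1.51 and 2.53 CPM in the IgG thyroids. The groups did not overlap, and the replicates of each group differed by 1.46-fold after anti-PD-L1 and 1.68-fold after IgG. The log2 fold change was 1.62 ± 0.38 (SE, 95% interval 0.60 to 2.63), a 3.07-fold higher level that did not pass over all genes (edgeR adjusted p = 0.407). DESeq2 called it with all libraries (DESeq2 adjusted p = 0.0142) and without IgG replicate 2 (DESeq2 adjusted p = 0.0178). The DESeq2 call was lost without anti-PD-L1 replicate 1 (DESeq2 adjusted p = 0.05004), without anti-PD-L1 replicate 2 (DESeq2 adjusted p = 0.430) and without IgG replicate 1 (DESeq2 adjusted p = 0.837). With each library left out the edgeR log2 fold change was between 1.27 and 2.04.

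T cell markers were measured beside Adora2a, which T cells express. Of 10 such markers 9 were listed, Cd4 the largest, and all 9 lay above, with sums of 120 and 116 CPM in the anti-PD-L1 thyroids and 17.4 and 39.3 CPM in the IgG thyroids. The 7 listed of 8 cytotoxic and NK markers, Nkg7 the largest, also lay above, with sums of 37.1 and 42.7 CPM after anti-PD-L1 and 3.88 and 5.83 CPM after IgG. The 8 dendritic cell markers, Itgax the largest, summed to 81.2 and 94.8 CPM in the anti-PD-L1 thyroids and 16.4 and 28.6 CPM in the IgG thyroids, with 6 above and 2 overlapping. No listed marker was at 0, and the part of these cells in the Adora2a values was not tested.

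**Figure D2:**
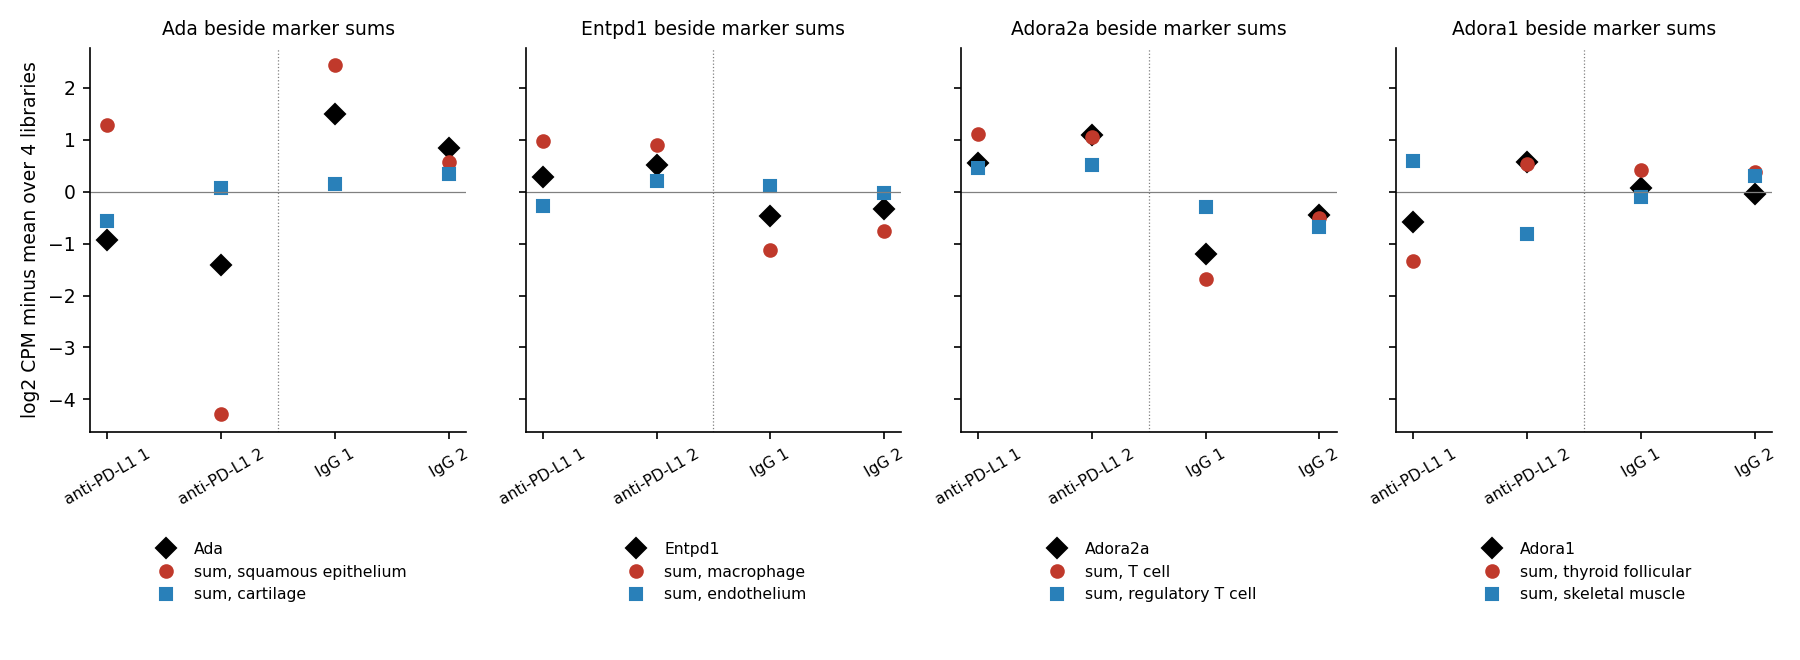
Log2 CPM minus its mean over the 4 libraries (y axis) for Ada, Entpd1, Adora2a and Adora1 (black diamonds, a panel each) and for the summed CPM of marker lists named in each legend (red circles and blue squares), by library on the x axis. Ada lies below 0 in both anti-PD-L1 libraries, where the squamous sum is above 0 in replicate 1 (6125 CPM) and far below it in replicate 2 (129 CPM), and Adora1 and the thyroid follicular sum are both lowest in anti-PD-L1 replicate 1.

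Adora1, which inhibits adenylyl cyclase, was the most abundant receptor of the set per length. It had 49.6 and 111 CPM in the anti-PD-L1 thyroids and 78.2 and 71.9 CPM in the IgG thyroids, so the anti-PD-L1 libraries lay on either side of the IgG libraries and differed 2.24-fold from each other. The log2 fold change was 0.098 ± 0.42 (95% interval −1.02 to 1.21, edgeR adjusted p = 1), with −0.61 without anti-PD-L1 replicate 2 and 0.56 without anti-PD-L1 replicate 1. The 10 thyroid follicular markers summed to 45997 and 166971 CPM in the anti-PD-L1 thyroids and 155594 and 150210 CPM in the IgG thyroids, with all 10 overlapping, and without Tg to 1330 and 4483 CPM after anti-PD-L1 and 2825 and 1679 CPM after IgG. Skeletal muscle markers, Acta1 the largest of 10, summed to 59016 and 22412 CPM after anti-PD-L1 and 36682 and 48451 CPM after IgG, with all 10 overlapping. The part of either tissue in the Adora1 values was not tested. Adora1, on the minus strand of chromosome 1 from 134199223 to 134235431, shares 1162 exon bases with Mybph, a muscle gene on the plus strand. Mybph had 47.7 and 32.9 CPM in the anti-PD-L1 thyroids and 73.6 and 70.3 CPM in the IgG thyroids, and without the strand setting their shared reads cannot be told apart.

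Adora2b, the other receptor that stimulates adenylyl cyclase, had 7.42 and 12.6 CPM in the anti-PD-L1 thyroids and 9.93 and 9.69 CPM in the IgG thyroids. Its groups overlapped, with a log2 fold change of 0.030 ± 0.31 (95% interval −0.79 to 0.85, edgeR adjusted p = 1), which was −0.42 without anti-PD-L1 replicate 2. Per length, Adora2a made up 11.6% and 8.46% of the 3 receptors in the anti-PD-L1 thyroids and 2.55% and 4.47% in the IgG thyroids. The share of Adora1 was 60.2% and 67.5% after anti-PD-L1 and 69.7% and 67.2% after IgG, and that of Adora2b was 28.2% and 24.0% after anti-PD-L1 and 27.7% and 28.4% after IgG. The sum of the 3 was 14.2 and 28.4 CPM per kilobase in the anti-PD-L1 thyroids and 19.4 and 18.5 CPM per kilobase in the IgG thyroids. The remaining adenosine receptor, Adora3, was not analysed here.

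**Figure D3:**
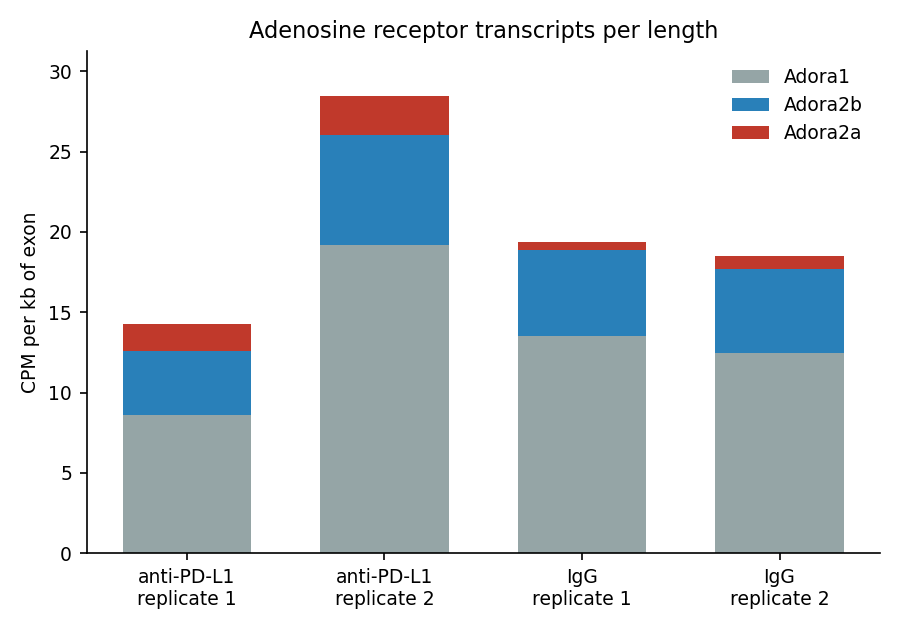
CPM per kilobase of exon (y axis, from 0) of Adora1 (grey), Adora2b (blue) and Adora2a (red), stacked for each of the 4 libraries on the x axis. The red part is 11.6% and 8.46% of the stack in the anti-PD-L1 thyroids and 2.55% and 4.47% in the IgG thyroids, while the height of the stack differs most between the anti-PD-L1 libraries.

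The intracellular enzymes beside Ada had smaller differences. Adk, on chromosome 14 from 21052574 to 21448569, was the steadiest gene of the set, with 34.5 and 32.3 CPM in the anti-PD-L1 thyroids and 35.3 and 34.2 CPM in the IgG thyroids. Its groups overlapped, the highest library was 1.09 times the lowest, and the log2 fold change was −0.056 ± 0.14 (95% interval −0.42 to 0.31, edgeR adjusted p = 1). Pnp, which acts on the inosine that Ada makes, had 46.2 and 48.8 CPM in the anti-PD-L1 thyroids and 35.1 and 32.3 CPM in the IgG thyroids. The groups did not overlap, and the log2 fold change was 0.49 ± 0.14 (SE, 95% interval 0.12 to 0.87), a 1.41-fold higher level that did not pass with edgeR (adjusted p = 0.546) or DESeq2 (adjusted p = 0.296), and it lay between 0.44 and 0.54 when any 1 library was dropped. The ratio of Pnp to Ada per length was 3.62 and 5.29 in anti-PD-L1 thyroids and 0.506 and 0.736 in IgG thyroids, and it carries the choice of Ada. Pnp, on chromosome 14 from 50931082 to 50965237, shares 718 exon bases with Gm49342 on the same strand and has a close neighbouring paralog, Pnp2, which was not analysed here, so its reads may be split.

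Dpp4 encodes CD26, a membrane peptidase that also anchors adenosine deaminase on human T cells. It had 11.4 and 23.4 CPM in the anti-PD-L1 thyroids and 12.2 and 13 CPM in the IgG thyroids, with anti-PD-L1 replicate 2 alone high and replicate 1 the lowest of the 4. The log2 fold change was 0.47 ± 0.38 (95% interval −0.56 to 1.5, edgeR adjusted p = 1), −0.16 without anti-PD-L1 replicate 2 and 0.90 without anti-PD-L1 replicate 1. Dpp4 lies on chromosome 2 from 62330073 to 62412231 and shares 232 exon bases with the antisense gene Gm13561. In all, 8 of the 10 genes were higher in anti-PD-L1 replicate 2 than in anti-PD-L1 replicate 1, as were 49.3% of all genes, and the exceptions were Ada and Adk.

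**Figure D4:**
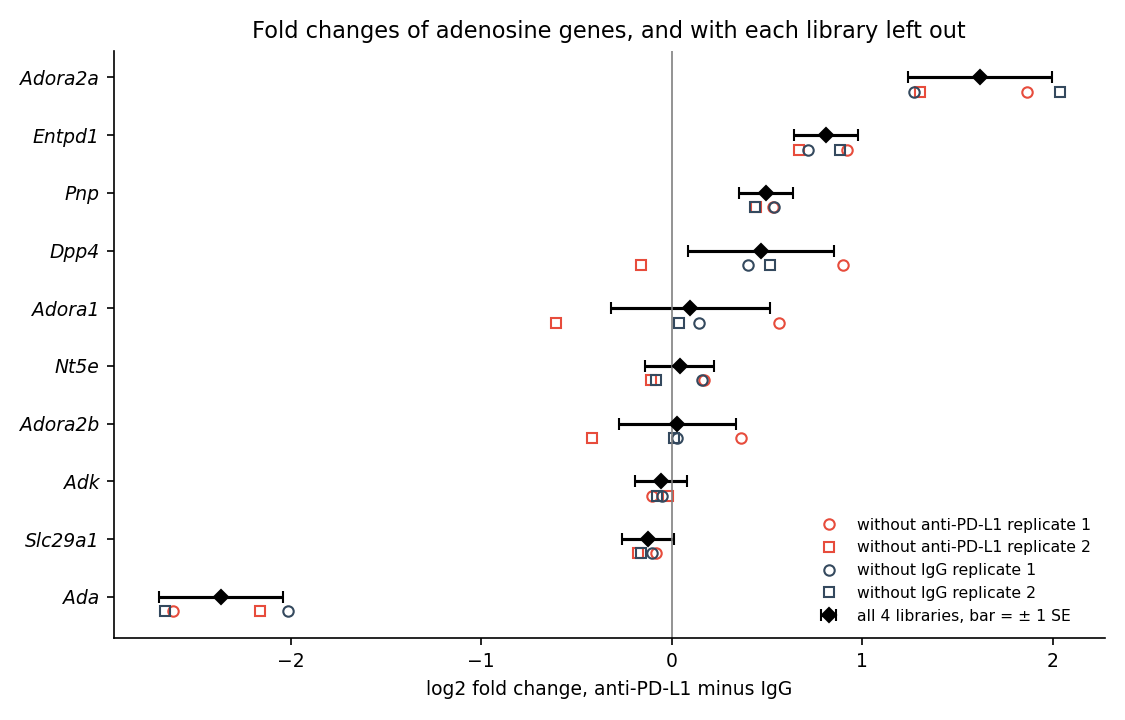
Log2 fold change, anti-PD-L1 minus IgG (x axis), of each of the 10 genes (y axis), with black diamonds and bars for the estimate ± 1 SE from all 4 libraries and open symbols for the estimate with 1 library left out. Ada (−2.36), Entpd1 (0.81), Adora2a (1.62) and Pnp (0.49) keep their direction under each omission, which groups without overlap all but fix in advance. Dpp4, Adora1, Nt5e and Adora2b, whose groups overlap, cross 0 when anti-PD-L1 replicate 2 is left out.

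Other genes of purine metabolism and signalling were taken as 96 symbols in 10 groups, of which 79 were listed. edgeR called 0 of the 79, with 4 higher and 2 lower at an unadjusted p under 0.05, limma voom called 0 with 7 at that level, and DESeq2 called 4 higher and 1 lower. As shares of the 79 these are 7.59% for edgeR against 6.06% of all genes, 8.86% for voom against 6.43%, and for DESeq2 5.06% higher against 2.93% and 1.27% lower against 0.327%. The groups did not overlap in 20 genes with anti-PD-L1 above (25.3%, against 16.5% of all genes) and in 12 with anti-PD-L1 below (15.2%, against 13.1%). The median log2 fold change was 0.041, against 0.00021 for all genes, and values ran from −0.95 to 1.79. Ada therefore lay below every one of the 79 genes, which restates the choice of Ada.

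The group of receptors for ATP and its relatives, which also holds the ATP release channel gene Panx1, had 13 listed genes and the widest values. P2ry6, a receptor for UDP, had 19.98 and 15.2 CPM in the anti-PD-L1 thyroids and 4.4 and 5.75 CPM in the IgG thyroids, higher by 1.79 ± 0.25 on the log2 scale after anti-PD-L1 (edgeR adjusted p = 0.200, DESeq2 adjusted p = 1.95e-06). P2ry13, a receptor for ADP, had 6.55 and 5.47 CPM after anti-PD-L1 and 2.10 and 2.81 CPM after IgG (edgeR adjusted p = 0.322, DESeq2 adjusted p = 0.00767). Of this group, 7 genes lay above, 2 below and 4 overlapped, with a median of 0.44. The 2 below were P2ry1, at −0.73 ± 0.20, and P2rx5, at −0.24 ± 0.21. The macrophage sums given above were also higher in both anti-PD-L1 libraries, as were those of T cells, cytotoxic and NK cells, and dendritic cells. The part of any of these cells in the values of this group was not tested. The 9 other genes of nucleotide hydrolysis outside cells had a median of −0.060, with Cd38, an NAD hydrolase, at 0.53 ± 0.20 and Alpl, an alkaline phosphatase, at −0.35 ± 0.17 on the log2 fold change scale. The 4 intracellular relatives of Entpd1 had a median of 0.11, with Entpd7 at 0.46 ± 0.24 and Entpd5 at −0.36 ± 0.22.

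Inside cells, Samhd1, which breaks down deoxynucleotides, had 127 and 160 CPM in the anti-PD-L1 thyroids and 68.0 and 61.7 CPM in the IgG thyroids (log2 fold change 1.14 ± 0.20, edgeR adjusted p = 0.244, DESeq2 adjusted p = 0.000263). It had the highest value among 7 nucleotidase genes with a median of 0.060, in which Nt5c1a had a log2 fold change of −0.72 ± 0.34. Dck, the kinase of deoxycytidine and deoxyadenosine, had 19.3 and 17.4 CPM after anti-PD-L1 and 9.58 and 10.9 CPM after IgG (log2 fold change 0.84 ± 0.17, edgeR adjusted p = 0.322, DESeq2 adjusted p = 0.0162). Dguok, the mitochondrial kinase of the same family, had a log2 fold change of 0.21 ± 0.15, and the 14 salvage and degradation genes had a median of 0.072. Ak4, a mitochondrial adenylate kinase, had 8.47 and 7.75 CPM in the anti-PD-L1 thyroids and 16.8 and 14.4 CPM in the IgG thyroids (log2 fold change −0.95 ± 0.18, edgeR adjusted p = 0.288, DESeq2 adjusted p = 0.00353), while the 7 adenylate kinases had a median of −0.060.

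The 13 genes of purine synthesis stayed between −0.17 and 0.11 with a median of −0.043, and their genes of smallest p, Impdh1 and Impdh2, had −0.17 ± 0.15 and −0.17 ± 0.19. Among 5 other nucleoside transporters, with a median of −0.22, the sodium-coupled Slc28a2 had a log2 fold change of 0.46 ± 0.21 and Slc29a2, a relative of Slc29a1, had −0.39 ± 0.22. Adal, a deaminase-like relative of Ada, had 8.41 and 10.7 CPM in the anti-PD-L1 thyroids and 10.1 and 11.5 CPM in the IgG thyroids (log2 fold change −0.18 ± 0.22, edgeR adjusted p = 1). The 6 relatives of Dpp4 had a median of −0.061, with Dpp10 at 0.59 ± 0.26 and Fap at −0.43 ± 0.25. None of the genes named in this paragraph passed over all genes with edgeR or DESeq2.

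**Figure D5:**
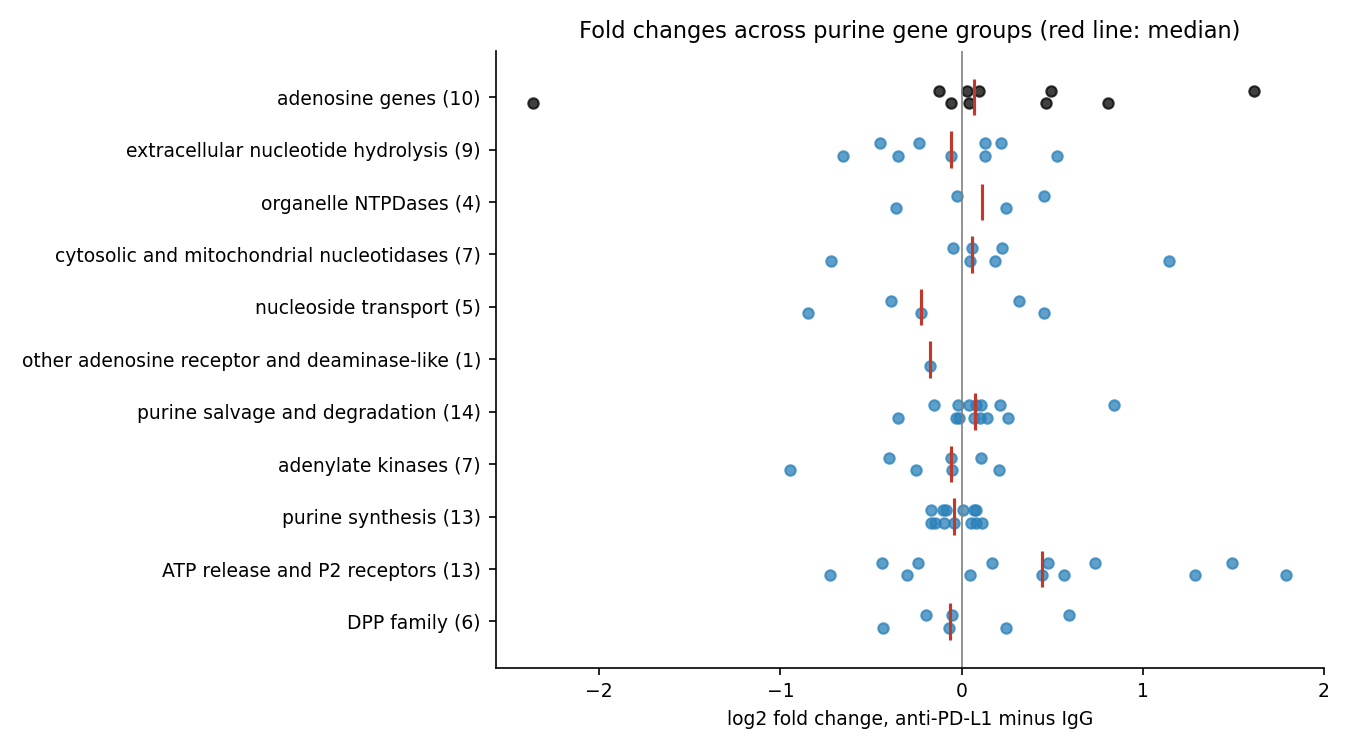
Log2 fold change, anti-PD-L1 minus IgG (x axis), of the 10 adenosine genes (black, top row) and of the 79 other purine genes by group (blue, number of listed genes in brackets), with a red line at each group's median. The purine synthesis genes lie between −0.17 and 0.11, the group of ATP release and P2 receptors reaches 1.79, and Ada at −2.36 is the lowest point.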

How the data were processed

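The table deposited by the authors holds unnormalized expected counts by gene symbol for 4 libraries. Per the submitters' processing notes, BWA and mm10 were used, with no role stated, and how reads were counted, on which strand and after which filter is not given in the sources used here. Of the genes deposited, 20.5% held a count that was not whole, every gene reached 100 counts in some library, and 13 blank cells were read as 0. Expected counts were rounded to whole numbers. The libraries of a group differed by more than sampling noise, with a chi-square over its degrees of freedom of 1060 in the anti-PD-L1 pair and 321 in the IgG pair.

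Genes were tested in edgeR 4.0.16 (R 4.3.3), after filterByExpr and with TMM factors, by a robust two-sided quasi-likelihood F test with group as the only term, and p-values adjusted by Benjamini-Hochberg across 16217 genes (threshold 0.05). Residual degrees of freedom were 2 (median prior 2.42). The size of each log2 fold change over the root of its F gives the standard error, and 95% intervals use the t distribution with the test's degrees of freedom. An exact two-sided permutation test of 2 against 2 libraries cannot go below p = 0.333. The batch label differs in every library and entered no fit. Exon lengths and positions came from GENCODE release M21 on GRCm38, the assembly also called mm10, as the union of a gene's exons. The annotation behind the counts may differ, which would change per-length values.

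The genes and lists were chosen with earlier results of these data known. Named genes were the 10 members, up to 2 genes of smallest p with a mean of at least 1 CPM per purine group, the 5 profiles most like Ada, Nt5e and Entpd1 (prior count 2), the largest gene of each marker list used, Cd274 and Tg. For 1 gene that this rule names, the result is not reported here. Any other gene was picked with its values in view. Alternative settings were RLE, upper-quartile and library-size scaling, no filter or a stricter one, DESeq2 1.42.0, limma 3.58.1 voom, a replicate block, omission of each library and a threshold of 0.10. DESeq2 with each library left out was added after seeing the data. Marker lists of B and plasma cells, C cells, parathyroid, airway glands, fibroblasts and adipocytes were also summed and are given at the end.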

Additional observations from a re-analysis of the deposited data

How the results depend on the processing

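Ada, Entpd1, Adora2a, Pnp, Adk and Slc29a1 kept their direction in all 16 other fits. Except for Adk, their groups did not overlap, so fits without 1 library could hardly have reversed them. For Ada the direction is also the one it was chosen for. Counts over all genes were 0 higher and 0 lower with edgeR under each scaling, filter and omission and with voom. DESeq2 called 475 higher and 53 lower, and 483 and 656 without anti-PD-L1 replicate 1, 430 and 355 without anti-PD-L1 replicate 2, 197 and 30 without IgG replicate 1, and 491 and 24 without IgG replicate 2, while a threshold of 0.10 gave 15 higher and 0 lower with edgeR. The numbers in the titles share no stated litter or day, deviations of same-numbered libraries correlated at r = 0.0998 across genes, and the replicate block called 0 genes, with log2 fold changes of −0.015 for Adora1 and −0.019 for Adora2b, against 0.098 and 0.030 without it. voom gave −0.024 for Adora1 and −0.012 for Adora2b. Without anti-PD-L1 replicate 2, edgeR gave −0.11 for Nt5e, −0.16 for Dpp4, −0.61 for Adora1 and −0.42 for Adora2b, and DESeq2 −0.11, −0.16, −0.61 and −0.41. Without anti-PD-L1 replicate 1, edgeR gave the highest values, 0.17 for Nt5e, 0.90 for Dpp4, 0.56 for Adora1 and 0.36 for Adora2b. Without IgG replicate 2, Nt5e was −0.081 with edgeR and −0.085 with DESeq2. Of the 9 genes other than Ada, DESeq2 alone placed Entpd1 and Adora2a past the threshold, and without anti-PD-L1 replicate 1 also Dpp4 (DESeq2 adjusted p = 0.0266) and Adora1 (DESeq2 adjusted p = 0.0423). The cause of these differences was not tested. The median of the 10 genes ran from −0.14 to 0.45 with each library left out, and that of the 79 purine genes from −0.0087 to 0.041. With 2 libraries per group a lone library left in an arm is assumed to vary like the others. The smallest count of the 10 genes was 121, for Adora2a in IgG replicate 1.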

Other observations

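Other marker lists gave these summed levels, with no test. B and plasma cell markers, of which Jchain is the largest, had 1336 and 547 CPM in the anti-PD-L1 thyroids and 48.4 and 292 CPM in the IgG thyroids. Airway and mucosal gland markers, led by Ltf, had 34030 and 10380 CPM after anti-PD-L1 and 4043 and 20624.5 CPM after IgG. Parathyroid markers, led by Pth, had 3645 and 2670 CPM after anti-PD-L1 and 3515 and 1202 CPM after IgG, and C cell markers, led by Calca, had 1770 and 1350 CPM after anti-PD-L1 and 1941 and 1323 CPM after IgG. Fibroblast markers, led by Col3a1, had 991 and 1243 CPM in the anti-PD-L1 thyroids and 886.5 and 1047 CPM in the IgG thyroids, and adipocyte markers, led by Cfd, had 500.0 and 1168 CPM after anti-PD-L1 and 956 and 779 CPM after IgG.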
